A study of Mus musculus with 32 samples.

Results

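Transcripts of 10 genes that mark mature neutrophils were measured in mouse whole blood 24 h after X-irradiation or sham treatment. The genes are S100a8, S100a9, Csf3r, Cxcr2, Il1r2, Mmp9, Mmp8, Retnlg, Fpr1 and Fpr2, chosen by name, and each was represented by 1 probe among the 39429 non-control probes of the array. All 10 were among the 15159 genes that passed the filter on dim probes. The set was chosen with earlier results of these data known. The blood came from 32 male C57BL/6 mice, 1 array per mouse, taken by cardiac puncture. Wild-type mice received 0 Gy (n = 6) or 8 Gy (n = 5). Mice without the DNA damage kinase ATM (ATM-/-) received 0 Gy (n = 5) or 4 Gy (n = 6). Scid mice, whose Prkdc mutation impairs the joining of DNA ends and the formation of lymphocytes, received 0 Gy (n = 5) or 3 Gy (n = 5). The doses were set to be equally lethal in each genotype, so genotype and dose change together and cannot be told apart in a comparison between the responses. Ages were not given in the sources used here.

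Neutrophils are made in the bone marrow, where precursors first fill their granules and then acquire the receptors that let the finished cell leave for the blood and find sites of infection. They live in the blood for a short time and are replaced from a marrow reserve, so their number in blood depends on release as well as on production, and stress hormones move it quickly. S100a8 and S100a9 encode the partner proteins of calprotectin, the most abundant protein of the neutrophil cytosol, which binds zinc and calcium and acts as a danger signal. Csf3r is the receptor of the growth factor G-CSF, and Cxcr2 is the chemokine receptor that draws neutrophils out of the marrow. Il1r2 is a decoy receptor that traps interleukin-1. Fpr1 and Fpr2 sense formylated peptides of bacteria. Mmp8 and Mmp9 are a collagenase and a gelatinase stored in granules, and Retnlg is a secreted resistin-like protein of mouse neutrophils.

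The probes are 60 bases long, and the file headers place them on build mm9. S100a8 (chr3:90473778-90473837, plus strand) and S100a9 (chr3:90496573-90496632, minus strand) are neighbours on chromosome 3, and Fpr1 (chr17:18013609-18013668, minus strand) and Fpr2 (chr17:18030540-18030599, plus strand) are neighbours on chromosome 17. The others are Csf3r (chr4:125721478-125721537), Cxcr2 (chr1:74206886-74206945), Il1r2 (chr1:40180014-40180073), Mmp9 (chr2:164780620-164780679), Mmp8 (chr9:7568238-7568297) and Retnlg (chr16:48874468-48874527), all on the plus strand. Whether a probe lies in coding sequence or an untranslated region was not analysed here. The bases below are shown because the 4 genes form the closest pairs in these data while the Csf3r probe stands apart from all of them. The first lines give bases 1 to 30 of the probe, and the last gives bases 31 to 60 of the Csf3r probe, with capitals for an 18-base run (positions 43 to 60) that belongs to the mouse B1 repeat, a short interspersed element found in very many transcripts.
S100a8: cttgttcagagaattggacatcaatagtga
S100a9: gtctaaagggaatggcttactcaatggcct
Il1r2: ttgatccagtcacaagggaggatctgcata
Mmp8: tttattctgaggagatttgggaagaatcag
Csf3r: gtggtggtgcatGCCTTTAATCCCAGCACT
None of the other 9 genes' probes holds this run on either strand. Across the array 3 probes hold it on the same strand, Csf3r among them, and 2 on the opposite strand. These counts are of the exact 18 bases and not of all probes with repeat sequence. Whether the bases before the run also belong to the repeat was not analysed here.

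Levels are given as log2 of the processed signal relative to the 75th percentile of the same array, so a level of 0 is the signal of that percentile. They compare a gene between mice and not one gene with another. Between 20.02 and 58.6% of probes were well above background per array. The irradiated wild-type arrays were among the brightest, with a 75th percentile of 127 to 232.0 against 24.1 to 203 in their controls. The number of arrays limits the precision. Of the 10 probes, 6 were well above background on all 32 arrays, those of Cxcr2, Mmp8 and Fpr2 on 31, and that of Mmp9, read from 10 replicate spots, on 29. Of 32 other genes listed for mature neutrophils, 30 passed the filter. The integrin subunit Itgam was well above background on 32 arrays and the surface antigen Ly6g on 22. C5ar1 was so on 10, Itgb2l on 8 and Mmp25 on 0. Liver transcripts were bright on 4 arrays (wild type 0 Gy replicate 5, wild type 8 Gy replicates 1 and 2, ATM-/- 4 Gy replicate 3); none of the 10 markers passed the test with or without them.

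None of the 10 genes changed past the threshold after irradiation in any genotype. In a limma fit of the 6 group means, with p-values adjusted by Benjamini and Hochberg over all 15159 genes and a call at an adjusted p under 0.05, 0 of 10 were called in wild-type mice at 8 Gy, where 7.2% of all genes were called (1.13% higher, 6.07% lower). The count was 0 of 10 in ATM-/- mice at 4 Gy (0.237% of all genes, 0.0726% higher and 0.165% lower) and 0 of 10 in Scid mice at 3 Gy (1.08% of all genes, 0.0594% higher and 1.02% lower). At an unadjusted p under 0.05 the counts were 0, 0 and 2, the latter being S100a8 and S100a9. In whole blood, fewer cells of a type and less RNA per cell cannot be told apart.

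The middle of the 10 changes is given for each genotype as a description, since none of the genes passed the test. In wild-type mice the median change was -0.38 on the log2 scale, against -0.02 for all genes, with 2 genes higher and 8 lower; with spike-in scaling, which moved the median of all genes to 1.25, all 8 were above 0, and with normexp background 7 of them were. Their changes ran from -0.99 for Retnlg to 0.80 for Csf3r, and their adjusted p-values from 0.354 to 0.915. In ATM-/- mice the median was 0.04 against -0.16 for all genes, with 7 higher and 3 lower, a range from -0.68 (Retnlg) to 0.93 (Mmp8) and adjusted p-values of 0.761 or more; the same 2 settings put all 7 below 0, with a median of all genes of -1.66 under spike-in scaling. That scaling called 71.1% of all genes in this comparison, and 5 of the 10 markers (S100a8, Mmp9, Retnlg, Fpr1 and Fpr2). In Scid mice all 10 estimates were below 0, with a median of -0.72 against 0.01 for all genes and a range from -1.45 (S100a8) to -0.03 (Csf3r). Leaving out 1 array at a time moved the median between -0.85 and -0.13 in wild type, between -0.21 and 0.39 in ATM-/- and between -1.15 and -0.41 in Scid. The wild-type median was above 0 with 5 alternative settings, among them the authors' deposited values (0.05) and slide as a fixed block (0.08). For none of the 10 genes did the irradiated mice lie wholly above or below their controls, where 5.07% of all genes did in wild type, 2.13% in ATM-/- and 2.68% in Scid. Standard errors ran from 0.48 to 0.91 log2 units. In simulated data built on the wild-type comparison (15159 genes), the same fit recovered 18% of changes of 1 log2 unit, 74% of changes of 2 and 90% of changes of 3. The changed genes were drawn at random from all genes with their own spreads, so these rates are not those of the 10 markers. In wild-type and ATM-/- mice every estimate for the 10 markers was smaller than 1 log2 unit.

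**Figure D1:**
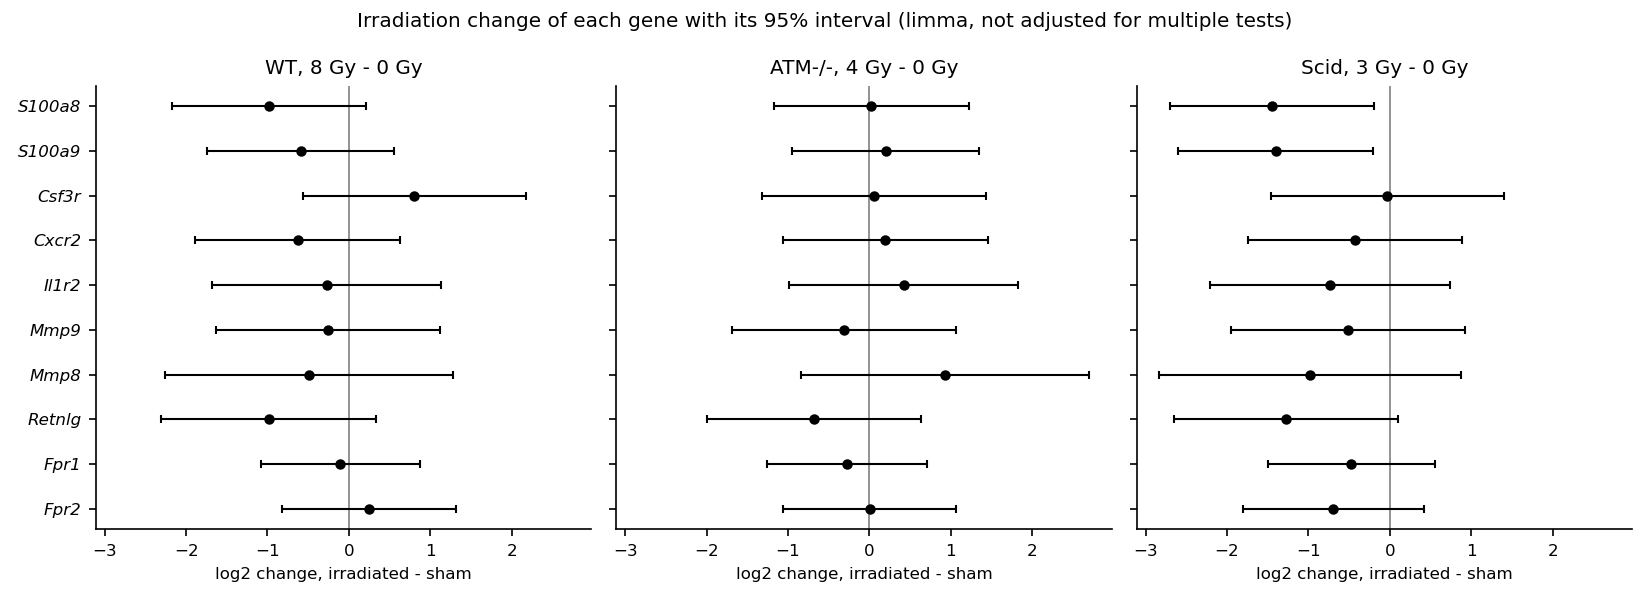
Irradiation change of each gene on the log2 scale (horizontal axis, irradiated minus sham) in wild-type mice (8 Gy), ATM-/- mice (4 Gy) and Scid mice (3 Gy), with 95% intervals from limma that are not adjusted for multiple tests. The intervals of S100a8 and S100a9 in Scid mice end below 0, at -0.20 for both, and every other interval spans 0. The Csf3r intervals in every panel include the spread from wild type 0 Gy replicate 4, where its spot lay in a dim patch.

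S100a8 and S100a9, the calprotectin pair, carried the lowest estimates in Scid mice. The S100a8 levels at 0 Gy were 7.32, 7.25, 6.14, 4.80 and 8.10 in replicates 1 to 5, and at 3 Gy they were 5.03, 6.99, 5.56, 3.87 and 4.92. The groups overlapped: replicate 2 at 3 Gy stood above 2 of the 5 controls, and replicate 4 was the only one below all of them. The difference was -1.45 (SE 0.61, 95% interval -2.70 to -0.20, unadjusted p = 0.0244, limma adjusted p = 0.378). S100a9 levels were 9.06, 9.37, 8.42, 7.03 and 9.98 at 0 Gy and 7.29, 9.43, 7.80, 5.50 and 6.82 at 3 Gy. Replicates 4 and 5 at 3 Gy lay below all controls, while replicate 2 lay above 4 of them. The difference was -1.40 (SE 0.59, 95% interval -2.60 to -0.20, unadjusted p = 0.0233, limma adjusted p = 0.372).

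The size of this Scid difference varied with the array left out and between scan days. Scid 0 Gy replicate 5, the highest control for both genes, had the lowest 75th percentile of the series, 17.1, with 24.99% of probes well above background. Without it the differences were -1.11 for S100a8 and -1.10 for S100a9, and without Scid 3 Gy replicate 4 they were -1.10 and -0.93. They were larger without Scid 0 Gy replicate 4 (-1.93 and -1.84) or Scid 3 Gy replicate 2 (-1.88 and -1.92), and none of the 10 fits that each left out a Scid array called either gene. Among the arrays scanned on the first day (2 irradiated, 4 controls) they were -0.37 and -0.11. On the second day (2 irradiated, with replicate 5 as the 1 control) they were -3.38 and -3.33, so day and that array cannot be told apart. With scan day as a block the median of the 10 genes in Scid mice was -0.76, against -0.72 without it. When arrays were weighted by their quality in limma, S100a8 (-1.92, adjusted p = 0.0192), S100a9 (-2.04, adjusted p = 0.0109) and Mmp9 (-1.93, adjusted p = 0.049) passed the threshold in Scid mice, in a fit that called 9.73% of all genes in place of 1.08%.

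In wild-type mice the S100a8 level at 0 Gy had a lowest value of 5.74, a median of 6.63 and a highest value of 7.10. At 8 Gy the levels were 6.22, 4.56, 6.44, 4.87 and 5.50, so 3 of 5 irradiated mice lay below all controls and the other 2 lay within their range. The difference was -0.98 (SE 0.59, limma adjusted p = 0.354). In ATM-/- mice S100a8 was 8.06, 5.27, 7.20, 5.40 and 6.70 at 0 Gy, and at 4 Gy it ran from 5.25 through a median of 6.24 to 8.30. Those groups covered the same range, and the difference was 0.02 (SE 0.59, limma adjusted p = 0.994). S100a9 differed by -0.59 (SE 0.56, limma adjusted p = 0.582) in wild type and by 0.20 (SE 0.56, limma adjusted p = 0.943) in ATM-/-. Group means of S100a8 fell in the order Scid 0 Gy (6.72), ATM-/- 4 Gy (6.55), ATM-/- 0 Gy (6.53), wild type 0 Gy (6.50), wild type 8 Gy (5.52) and Scid 3 Gy (5.27). Each neighbouring pair in that order differed by no more than the spread within groups, a pooled SD of 1.02.

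**Figure D2:**
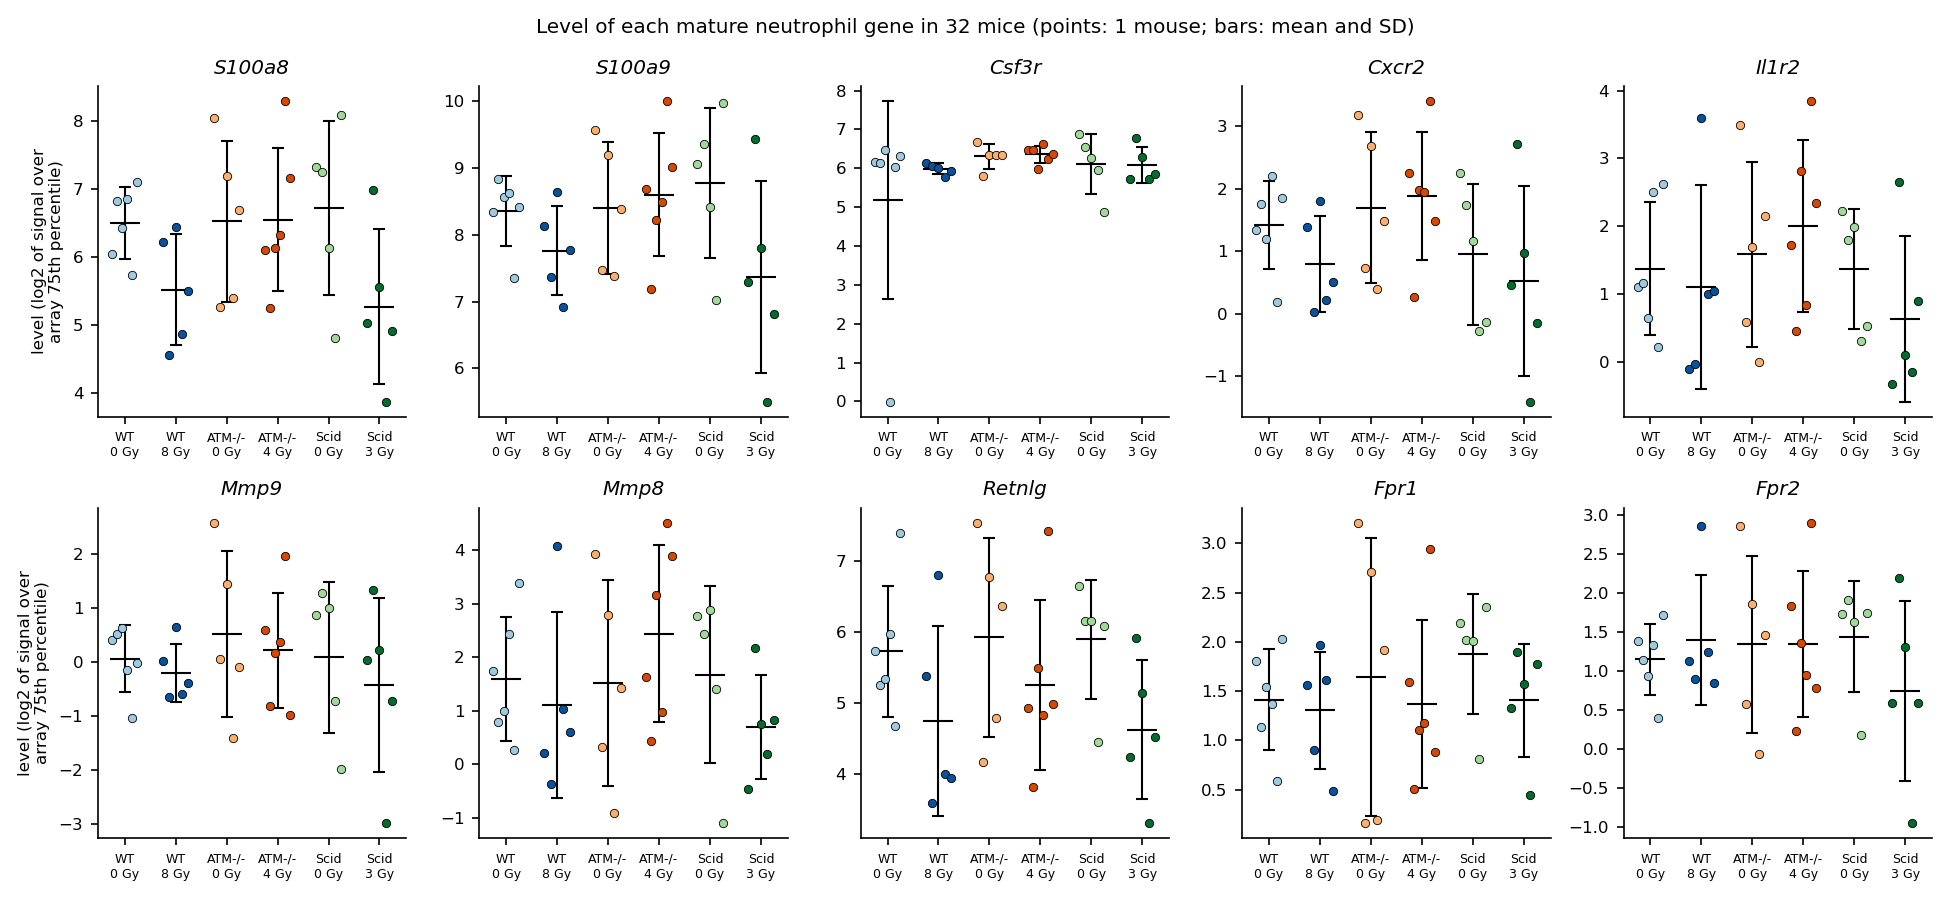
Level of each of the 10 genes in every mouse (vertical axes, log2 of signal over the 75th percentile of the array) in the 6 groups of genotype and dose. Points are mice and bars are the mean and SD; the groups overlap in every panel, and the Csf3r point near 0 is wild type 0 Gy replicate 4, at -0.01.

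The start regions of the calprotectin genes are shown because their transcripts moved together more closely than any other pair. They are the 250 bases upstream of each gene's start in RefSeq's GRCm38.p6 table, 5′ to 3′ on the strand of the gene, S100a8 at chr3:90668821-90669070 (plus strand) and S100a9 at chr3:90695722-90695971 (minus strand). Capitals mark matches to 3 motifs on either strand: TTGCNNAA, bound by C/EBP factors, GAGGAAGT, bound by PU.1, and the TATA box TATAAA. C/EBP factors and PU.1 are known for directing granulocyte gene expression.
S100a8: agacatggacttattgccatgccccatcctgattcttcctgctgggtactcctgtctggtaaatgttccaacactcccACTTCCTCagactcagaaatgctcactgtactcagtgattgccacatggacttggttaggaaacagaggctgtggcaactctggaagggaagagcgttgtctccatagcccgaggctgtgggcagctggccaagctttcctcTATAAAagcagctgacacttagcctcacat
S100a9: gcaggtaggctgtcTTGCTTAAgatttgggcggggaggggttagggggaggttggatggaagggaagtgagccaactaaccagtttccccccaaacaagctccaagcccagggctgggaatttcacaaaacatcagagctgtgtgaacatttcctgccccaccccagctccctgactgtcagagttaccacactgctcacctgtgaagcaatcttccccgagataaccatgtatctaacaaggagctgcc
S100a8 holds the PU.1 letters and a TATA box, and S100a9 holds the C/EBP letters. Of the 10 genes 9 matched the table, all but Mmp9. The C/EBP letters were in 3 of these 9 windows (Mmp8, Retnlg, S100a9) and in 9.56% of all 32851 windows of that length. The PU.1 letters were in 2 (Mmp8, S100a8) against 2.44% of windows, and the TATA box in 3 (Fpr1, Fpr2, S100a8) against 12.4%. These matches describe letters and not binding.

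Among the receptors, Cxcr2 and Il1r2 varied widely within every group. Cxcr2 at 0 Gy in wild type ran from 0.19 through a median of 1.55 to 2.20, and the irradiated mice had 1.38, 0.03, 1.81, 0.22 and 0.52. 1 irradiated mouse (replicate 2) lay below all controls and the other 4 within their range, a difference of -0.63 (SE 0.62, limma adjusted p = 0.596). The Cxcr2 differences were 0.19 (SE 0.62, limma adjusted p = 0.953) in ATM-/- and -0.43 (SE 0.64, limma adjusted p = 0.908) in Scid. The decoy receptor Il1r2 at 8 Gy in wild type was -0.10, -0.02, 3.60, 0.997 and 1.05, against a control range of 0.22 to 2.62 with a median of 1.13. Replicates 1 and 2 thus lay below every control and replicate 3 above every control, and the difference of -0.27 (SE 0.69, limma adjusted p = 0.850) averaged over mice on both sides of the controls. In ATM-/- it was 0.42 (SE 0.69, limma adjusted p = 0.891) and in Scid -0.73 (SE 0.72, limma adjusted p = 0.838), where replicates 1, 3 and 4 at 3 Gy (-0.33, 0.10 and -0.15) lay below the lowest control, 0.31, and replicate 2 (2.66) above the highest, 2.23.

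The formyl peptide receptors varied less than most of the other markers. Fpr1 group means lay between 1.30 (wild type 8 Gy) and 1.88 (Scid 0 Gy), and its differences were -0.11 in wild type, -0.27 in ATM-/- and -0.47 in Scid (SE 0.48 to 0.50, limma adjusted p 0.855 or more). Fpr2 means lay between 0.74 (Scid 3 Gy) and 1.44 (Scid 0 Gy). In wild type at 8 Gy Fpr2 was 1.13, 0.90, 2.86, 1.24 and 0.85, where replicate 3 alone stood above the control range of 0.39 to 1.72. Its differences were 0.25 (SE 0.52) in wild type, 0.00 (SE 0.52) in ATM-/- and -0.70 (SE 0.54) in Scid, with limma adjusted p-values of 0.818, 0.9996 and 0.779.

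The granule proteases varied widely between mice. Mmp8, the neutrophil collagenase, ran from -0.90 (ATM-/- 0 Gy replicate 4) to 4.52 (ATM-/- 4 Gy replicate 5) on the 31 arrays where it was well above background, and was not well above background in Scid 0 Gy replicate 5. In wild type at 8 Gy its levels were 0.20, -0.38, 4.08, 1.03 and 0.61, against controls from 0.26 through a median of 1.36 to 3.39. Replicates 1 and 2 lay below all controls and replicate 3 above all of them, as for Il1r2, and the difference was -0.49 (SE 0.87, limma adjusted p = 0.781). In ATM-/- mice Mmp8 was 3.94, 0.31, 2.80, -0.90 and 1.42 at 0 Gy and ran from 0.44 through a median of 2.40 to 4.52 at 4 Gy. This was the highest estimate in that genotype, 0.93 (SE 0.87, limma adjusted p = 0.761), with 1 irradiated mouse above all controls. In Scid mice the difference was -0.98 (SE 0.91, limma adjusted p = 0.829). Mmp9, the gelatinase, differed by -0.26, -0.31 and -0.51 in wild type, ATM-/- and Scid (SE 0.67 to 0.70, limma adjusted p 0.854 or more). Mmp9 was not well above background in Scid 3 Gy replicate 4, Scid 0 Gy replicate 5 and ATM-/- 4 Gy replicate 6, so its levels there are only bounds.

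Retnlg, the resistin-like protein, had the lowest estimate of the 10 genes in wild type and in ATM-/- mice. In wild type it ran from 4.68 through a median of 5.54 to 7.39 at 0 Gy, and at 8 Gy it was 5.38, 3.58, 6.81, 4.00 and 3.94. Replicates 2, 4 and 5 lay below all controls and the other 2 within their range, the same 3 mice as for S100a8. The difference was -0.99 (SE 0.65, 95% interval -2.30 to 0.33, limma adjusted p = 0.403). In ATM-/- mice Retnlg was 7.54, 4.17, 6.77, 4.78 and 6.36 at 0 Gy and from 3.81 to 7.42 with a median of 4.96 at 4 Gy, a difference of -0.68 (SE 0.65, limma adjusted p = 0.764). In Scid mice it was 6.65, 6.16, 6.15, 4.45 and 6.08 at 0 Gy and 4.23, 5.92, 5.14, 3.30 and 4.51 at 3 Gy. Replicates 1 and 4 at 3 Gy lay below all controls, and the difference was -1.28 (SE 0.67, 95% interval -2.65 to 0.10, limma adjusted p = 0.573).

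Csf3r, the G-CSF receptor, was read by the probe that ends in the B1 repeat run, and its level was flat. Leaving aside 1 array, it lay between 4.87 and 6.87 in all mice, and the irradiation differences were 0.06 (SE 0.67) in ATM-/- and -0.03 (SE 0.70) in Scid. The exception was wild type 0 Gy replicate 4, at -0.01, where the spot gave a signal of 40.9 against 502 or more on the other 31 arrays. That spot lay in a dim patch of the array. Of 11 bright spots within 6 rows and columns of it, 6 lay more than 3 log2 units below their own median over all arrays, against at most 1 of them on any other array. The median deviation of these neighbours was -3.58 there and between -1.11 and 0.80 elsewhere. The wild-type difference of 0.80 (SE 0.67, limma adjusted p = 0.529) rested on this array, and without it was -0.23. The fit takes 1 spread per gene from all 6 groups, so this array also enters the SEs in ATM-/- and Scid. The SD of Csf3r was 2.55 in wild type 0 Gy and from 0.14 (wild type 8 Gy) to 0.77 (Scid 0 Gy) in the other groups. For the other 9 genes the lowest median deviation of neighbouring bright spots on any array was -2.32, which is also below -1.11. Its part in the level of that gene was not tested.

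At 0 Gy no difference between genotypes was called for these genes or for any other gene tested. The counts of 0 are therefore no result about the markers. The limma fit called 0 of 10 between ATM-/- and wild type and 0 of 10 between Scid and wild type, where 0% of all genes were called in either comparison, and at an unadjusted p under 0.05 the counts were also 0. No gene's groups were apart, where 0.099% and 0.0264% of all genes had groups that did not overlap. The median differences were 0.20 and 0.19, and both comparisons share the wild-type controls. Tests of the difference between irradiation responses likewise called 0 of 10 for ATM-/- against wild type, Scid against wild type and Scid against ATM-/-, with 0% of all genes called in each and 0 of 10 at an unadjusted p under 0.05. The difference of responses between Scid and ATM-/- was -1.60 for S100a9 (SE 0.81) and -1.91 for Mmp8 (SE 1.26), both with a limma adjusted p of 0.9999.

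Most of the variation in these genes lay between mice of the same group. Group membership accounted for 6.52% (Fpr1) to 26.6% (S100a8) of the variance over the 32 mice, and for no gene did any of the 15 pairs of groups fail to overlap. The same measures over all genes are not given here, so they describe the markers and do not set them apart. The same mice were high or low for most of the genes. Averaged over 9 genes (all but Csf3r) after each was scaled to a mean of 0 and an SD of 1, the highest arrays were ATM-/- 4 Gy replicate 5 (1.89) and ATM-/- 0 Gy replicate 1 (1.82), followed by ATM-/- 0 Gy replicate 3 (1.01). The lowest were Scid 3 Gy replicate 4 (-1.98), ATM-/- 0 Gy replicate 4 (-1.12) and wild type 8 Gy replicate 2 (-1.02). Both ends of the range thus held irradiated and sham-treated mice, and the ATM-/- controls held mice at both ends.

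The genes varied together from mouse to mouse. Over deviations from group means in 32 mice, the closest pair was S100a8 and S100a9, with a Pearson r of 0.95 and a Spearman rho of 0.95 (two-sided permutation p = 1e-05 for each, the smallest that 100000 permutations give). Without the 2 mice farthest from the median r was 0.94, and within the first (15 arrays) and second (12 arrays) scan days it was 0.96 and 0.97. Il1r2 and Mmp8 came next, at r = 0.91 and rho = 0.91 (permutation p = 1e-05 for each). Among all 36 pairs without Csf3r, of 45 pairs computed, r ran from 0.49 to 0.95 with a median of 0.78 and rho from 0.52 to 0.95. The weakest was S100a9 with Mmp8 (r = 0.49, permutation p = 0.00447; rho = 0.52, permutation p = 0.00225). The 36 values were 0.62 to 0.96 within the first scan day and 0.39 to 0.97 within the second. The p-values of single pairs are not adjusted, since the genes were chosen as one cell type's markers, and each pair shares the array and its scaling.

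**Figure D3:**
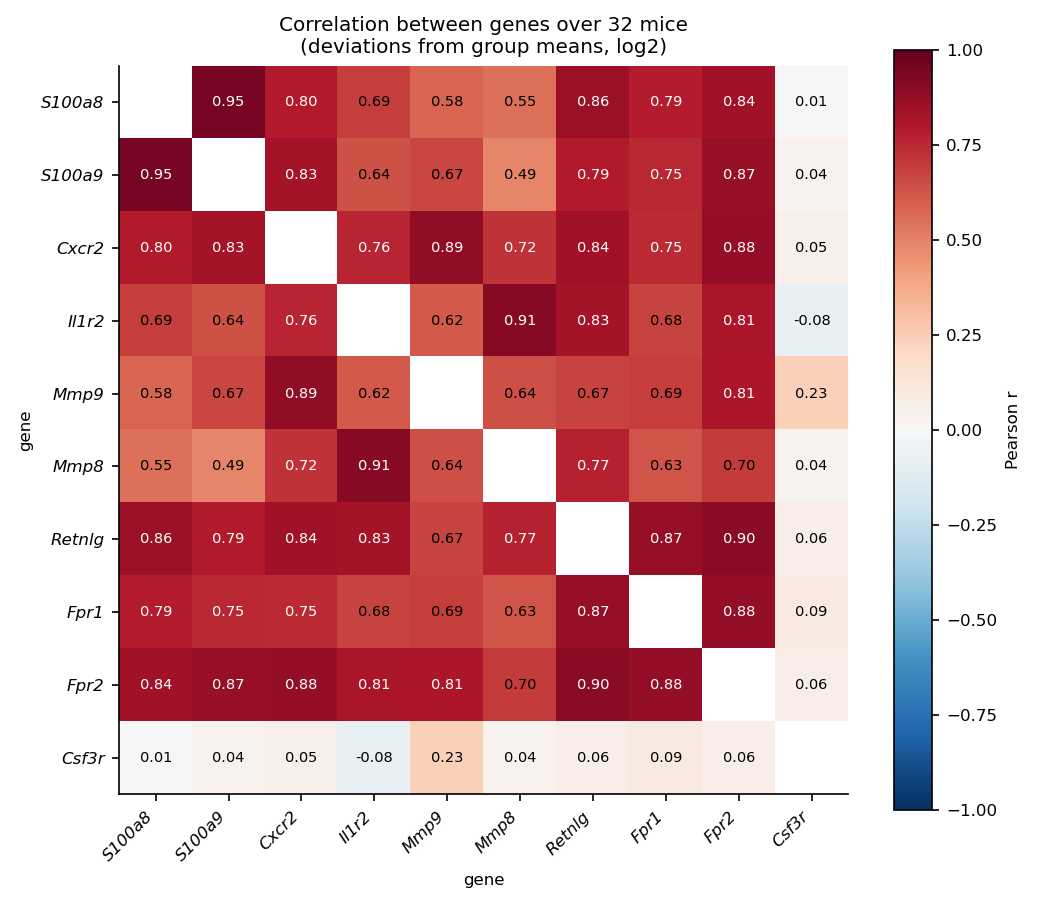
Pearson correlation of each pair of genes over 32 mice (colour and printed value), computed on deviations of log2 levels from the group mean. The 36 pairs without Csf3r lie between 0.49 and 0.95, and the 9 pairs with Csf3r between -0.08 and 0.23.

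Csf3r followed the other 9 less closely. Its r with them ran from -0.08 (Il1r2) to 0.23 (Mmp9) and its rho from 0.04 to 0.43, and without the array with the dim patch r ran from 0.14 to 0.42. With Mmp9 the rho was 0.43 (permutation p = 0.0152) and the r 0.23 (permutation p = 0.197). The 9 r values were 0.28 to 0.48 within the first scan day and -0.31 to 0.06 within the second. The second day includes the array with the dim patch, so these values do not show a difference between days. Over the 31 arrays without the dim patch the Csf3r level correlated at 0.53 and 0.35 with the 2 other probes holding the B1 run on the same strand (TC1653005 and Slc10a1, a liver bile acid transporter). With the 2 that hold it on the opposite strand the values were 0.43 (Galns) and -0.11 (Nxnl1). These are correlations of levels and not of deviations from group means, so they cannot be set against the r values with the markers. How much of the Csf3r signal comes from Csf3r transcripts was not tested. A discordant array was Scid 0 Gy replicate 5, where S100a8 (8.10) and S100a9 (9.98) were high while Cxcr2 (-0.13) and Csf3r (4.87) were low and Mmp8 and Mmp9 were not well above background. That array had the lowest 75th percentile of all, and the part of its low signal in this was not tested. Over the 32 arrays the mean of the 9 genes had an r of -0.20 with the percentage of probes well above background, -0.23 with the log2 75th percentile and -0.00 with the spike-in signal.

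**Figure D4:**
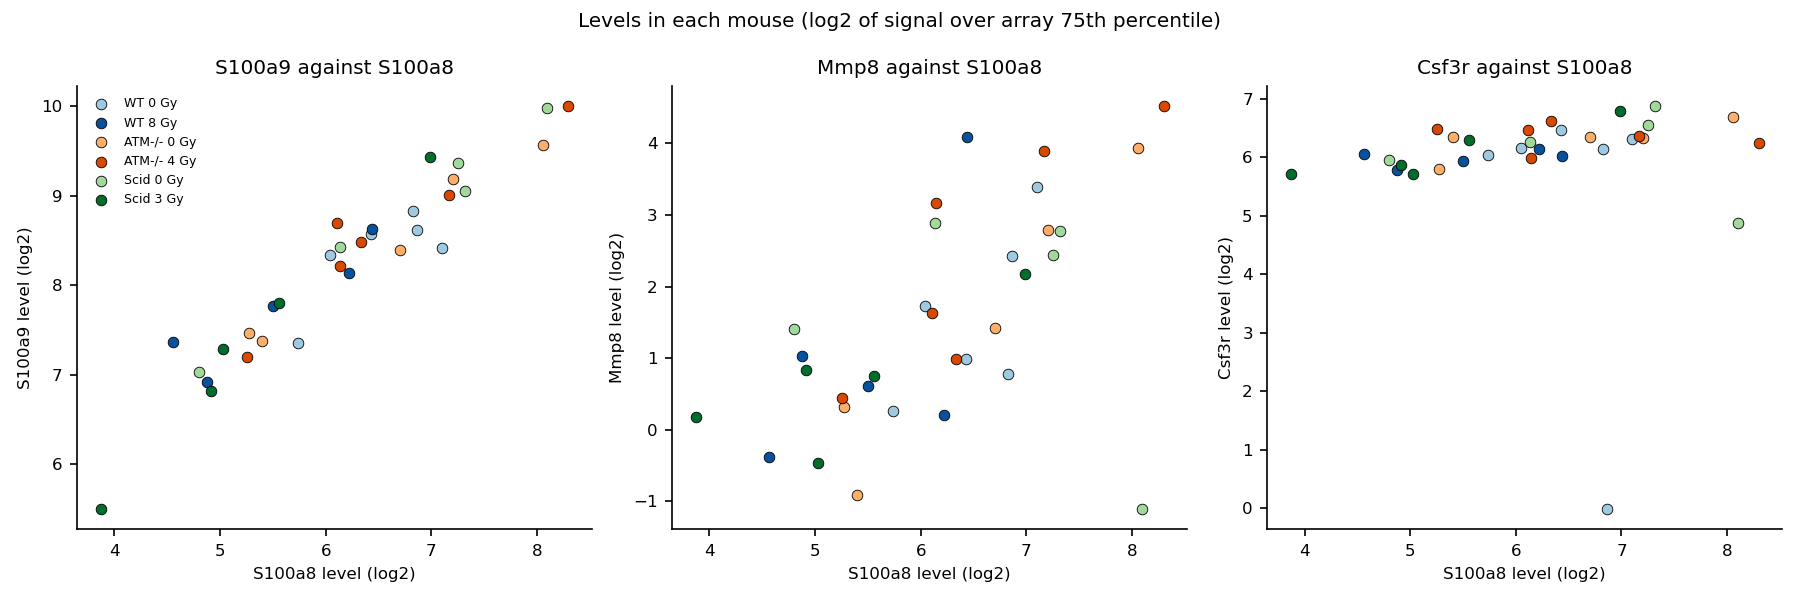
Level of S100a9, Mmp8 and Csf3r (vertical axes, log2) against the level of S100a8 (horizontal axes, log2) in each of 32 mice, coloured by group. S100a9 follows S100a8 closely, Mmp8 follows it less closely, with Scid 0 Gy replicate 5 (-1.10, not well above background) far below other mice of high S100a8, and Csf3r stays between 4.87 and 6.87 but for the array at -0.01.

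The genes whose levels were most like those of the 10 markers were ranked by Pearson r with the markers' mean over the 32 arrays, among 15149 other genes. The highest were Asprv1 (0.91), a retroviral-like protease of neutrophils and skin, Mirt2 (0.90), a long noncoding RNA, and Stfa2l1 (0.90), a stefin A protease inhibitor. The transcript ENSMUST00000077110 (0.90), the signal regulatory proteins Sirpb1a (0.89) and Sirpb1b (0.89), Scrg1 (0.89), the mitochondrial arginase Arg2 (0.88), the junction molecule Jaml (0.88) and the cystatin-domain gene Cstdc4 (0.88) completed the first 10. The same 10 genes came first when Csf3r was left out of the mean. The stefin A and Sirpb1 genes have near-identical copies, so a probe for one may read another. The median r over all genes was 0.05, and 29 genes exceeded 0.8. Stfa2l1 and Asprv1 differed by -0.35 (SE 0.57) and -0.00 (SE 0.70) after irradiation in wild type, with limma adjusted p-values of 0.761 and 0.9996.

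Some other genes of mature neutrophils did pass the test in wild-type mice. Of 32 listed genes 30 were tested at 8 Gy, where 4 rose and 1 fell, with a median of 0.49 against -0.38 for the 10 markers and -0.02 for all genes. Of all genes 1.13% rose and 6.07% fell in this comparison, so the 1 fall is no more than the background share. The list was chosen with earlier results of these data known, so the 4 rises are no test of the list. Slpi, a secreted inhibitor of neutrophil elastase, rose from 6.61 ± 0.64 (SD, n = 6) to 8.34 ± 0.56 (SD, n = 5), by 1.73 (SE 0.45, limma adjusted p = 0.0119). Lrg1, a glycoprotein of neutrophil granules and liver, rose by 1.89 (SE 0.54, limma adjusted p = 0.0275). The Fc receptors Fcgr3 (1.57, limma adjusted p = 0.0265) and Fcgr4 (1.20, limma adjusted p = 0.0283), named after their values were seen, rose as well; monocytes also express them. Mxd1, a MAX partner of maturing myeloid cells, fell by 1.72 (SE 0.44, limma adjusted p = 0.011). Slpi remained past the threshold when any 1 of the 11 wild-type arrays was left out, Mxd1 in 10 of these 11 fits, Fcgr3 in 7, Fcgr4 in 5 and Lrg1 in 4. Without the 4 arrays bright for liver transcripts the changes of Slpi, Lrg1 and Fcgr3 were 1.58, 1.65 and 1.49, with limma adjusted p-values of 0.113, 0.116 and 0.138. Fcgr4 (1.40, limma adjusted p = 0.0465) and Mxd1 (-1.57, limma adjusted p = 0.0423) kept their calls there.

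The same lists showed no call in the other genotypes. Of the 30 mature neutrophil genes, limma called 0 in ATM-/- (median -0.11) and 0 in Scid (median -0.10). Of all genes 0.237% were called in ATM-/- and 1.08% in Scid, so 0 of 30 is near those shares. Over the 32 arrays the mean of this list had an r of 0.73 with the mean of the 9 markers. Of 20 granule and precursor genes 13 were tested, and in wild type Tcn2, a carrier of vitamin B12, rose by 1.79 (SE 0.51, limma adjusted p = 0.0269) and Camp, the cathelicidin of secondary granules, fell by 1.40 (SE 0.43, limma adjusted p = 0.0411), a count near the 7.2% called among all genes. Their list had a median of 0.41 in wild type, 0 calls in ATM-/- and Scid, and an r of 0.34 with the 9 markers. Camp kept its call in 3 of 11 fits that each left out a wild-type array, and Tcn2 in 5. Without the 4 liver-bright arrays their limma adjusted p-values were 0.0765 (change -1.34) and 0.115 (change 1.78), and over 17 alternatives Camp was called in 4 and Tcn2 in 10. The transferrin-like granule protein Ltf was well above background on 9 arrays and the peroxidase Mpo on 5, so neither was tested.

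**Figure D5:**
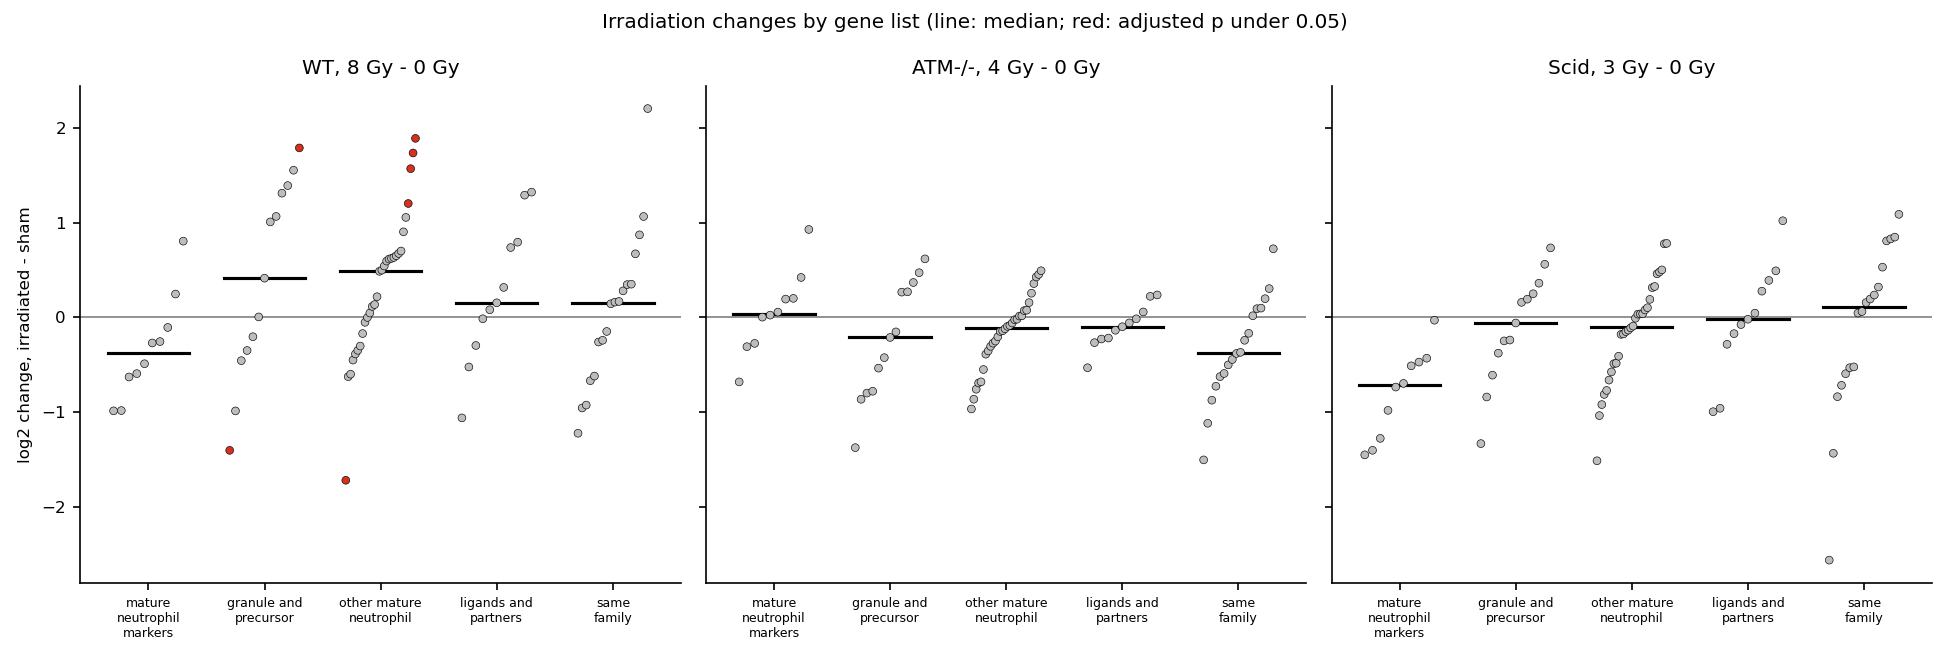
Irradiation change (vertical axis, log2, irradiated minus sham) of the 10 markers and of the tested genes of 4 related lists in each genotype; lines are medians and red points have a limma adjusted p under 0.05. The 10 markers hold no red point, and the 7 red points all lie in the wild-type panel, 5 of them higher and 2 lower. Of all genes 7.2% were called in wild type, 0.237% in ATM-/- and 1.08% in Scid.

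Ligands and signalling partners of the markers held no call, where 7.2% of all genes were called in wild type, 0.237% in ATM-/- and 1.08% in Scid. Counts of 0 in lists this small are near those shares. Of 22 listed genes 11 were tested and limma called 0 in each genotype, with medians of 0.15, -0.10 and -0.02 in wild type, ATM-/- and Scid. Among them were Ppbp, a platelet chemokine that binds Cxcr2, which differed by 0.15, -0.14 and 0.49, and Anxa1, a ligand of the formyl peptide receptors, which differed by 0.32, -0.22 and -0.08. The chemokines Cxcl1 and Cxcl2 and the cytokine Csf3 itself were well above background on at most 2 arrays. Of 30 relatives of the markers in the S100, formyl peptide receptor, resistin, chemokine receptor, interleukin-1 receptor and matrix metalloproteinase families, 18 were tested and 0 called, with medians of 0.15, -0.37 and 0.11. S100a5 and S100a10 differed by -1.22 and 0.35 in wild type (limma adjusted p = 0.195 and 0.659).

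Some markers of other blood cells passed the test in the same arrays. In wild type, where 6.07% of all genes fell and 1.13% rose, at 8 Gy 9 of 12 erythroid genes fell (median -2.23), 4 of 11 B cell genes and 1 of 14 T and NK cell genes (near the background share) fell, and 2 of 14 monocyte genes rose (median 1.09). The falls called were 1 erythroid and 1 B cell gene in ATM-/- mice, where 0.165% of all genes fell, and 4 erythroid genes in Scid mice, where 1.02% fell. The mean of the 14 monocyte genes ran from 0.58 to 2.16 in wild-type controls and from 1.86 to 3.30 at 8 Gy, and that of the 12 erythroid genes from 2.25 to 4.24 and from -0.05 to 1.34. Against the mean of the 9 markers the lists had an r of -0.27 for monocyte, 0.29 for erythroid, -0.00 for B cell, 0.17 for T and NK cell and -0.10 for liver genes over the 32 arrays. Since each level is relative to the array's own 75th percentile, the part of these shifts in the neutrophil values was not tested.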

How the data were processed

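Whole blood RNA, depleted of globin transcripts, was hybridised to 1-colour Agilent arrays, per the labels' protocols. Each array's deposited scanner output gives processed signals, linear intensity values that the authors obtained with Agilent Feature Extraction (12.0.2 per the submitters' processing notes, 11.5.1.1 per the file headers). They also deposited log2 values of the same arrays, of which 98.1 to 99.1% lay within 0.01 of the log2 signal plus a constant per array (column medians 5.51 to 6.44); how the constant was set is unknown, and they served as an alternative.

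Outlier spots (125 to 324 per array) were left out, replicate spots averaged, and log2 intensity was set to the array's 75th percentile. Probes flagged well above background in 4 or more arrays of any group were kept (18367), and each gene took its brightest kept probe. Names came from accession (27508 probes), symbol (3544) or synonym (404) in the RefSeq table, or from the file (7973). Group means were fitted with limma 3.58.1 in R 4.3.3 on all 32 arrays, tested on simulated data; 8 comparisons were made. Replicates were individual mice, per the series design. Correlations used scipy 1.17.1 and numpy 2.4.6 in Python 3.11.15, and figures matplotlib 3.10.9.

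The named genes were the 10 markers; genes called in the lists of partners and relatives; up to 3 called genes of largest change per other list, or the 2 brightest where none was called; and the 10 genes most like the markers. The markers and 12 gene lists were chosen with earlier results of these data known. Alternatives covered scaling, background, filter, probe choice, deposited values, scan day, slide, replicate number, array weights and left-out arrays. Replicate numbers did not pair the mice.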

Additional observations from a re-analysis of the deposited data

Results flagged for a closer look

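In 6 of 60 sets of a gene and a group, 1 mouse lay far from the others of its group by Dixon's criterion, which chance meets in about 1 of 20. Scid 0 Gy replicate 4 was low for 3 genes, at 4.45 for Retnlg, 0.81 for Fpr1 and 0.17 for Fpr2. Wild type 0 Gy replicate 5, one of the arrays bright for liver transcripts, was low for S100a9 at 7.36. Wild type 8 Gy replicate 3 was high for Fpr2 at 2.86. Wild type 0 Gy replicate 4 gave -0.0085 for Csf3r, on the dim patch of that array.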

How the results depend on the processing

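The count of the 10 markers called stayed at 0 in all 8 comparisons under all alternatives but 2. Several settings called almost no gene at all, so a count of 0 there is no result about the markers. Of 15159 genes, normexp background called 0 in Scid and 1 in ATM-/- mice. Scan day as a block and slide as a fixed block each called 0 in ATM-/- mice. Spike-in scaling called 5 in ATM-/- mice, where it called 71.1% of all genes, and 6 for the difference of responses between ATM-/- and wild type, where it called 90.1%. Array weights called 3 in Scid mice, where they called 9.73% of all genes. Leaving out any 1 array left 0 calls in each comparison. Directions were less stable: of 166 values per genotype under the other alternatives the sign turned in 34 in wild type, 26 in ATM-/- and 5 in Scid, where only Csf3r turned. The cause of the turned signs was not tested. Some of the 166 values could not turn, since each marker has 1 probe and its estimate stays the same in some settings. These were no filter on dim probes, the mean of kept probes, only probes detected on all arrays, and only the groups compared.

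In wild type the turned values under spike-in scaling were 0.29 for S100a8, 0.68 for S100a9, 0.65 for Cxcr2, 1.01 for Il1r2, 1.02 for Mmp9, 0.79 for Mmp8, 0.29 for Retnlg and 1.17 for Fpr1. With normexp background they were 0.49 for S100a8, 0.83 for S100a9, 0.24 for Cxcr2, 0.50 for Il1r2, 0.51 for Mmp8, 0.44 for Retnlg and 0.37 for Fpr1. Il1r2, Mmp9 and Fpr1 were 0.069, 0.084 and 0.23 with the array median, 0.16, 0.16 and 0.32 with the authors' deposited values, and 0.16, 0.18 and 0.33 with the percentile of probes detected on all arrays. S100a9 was 0.32 after quantile normalization. With scan day as a block Mmp9 was 0.082 and Fpr1 0.18, and with slide as a fixed block S100a9 was 0.15, Cxcr2 0.010, Mmp9 0.52 and Fpr1 0.53. Without the 4 arrays bright for liver transcripts Il1r2 was 0.28 and Mmp8 0.042. Without 3 arrays with under 30% of probes detected, an alternative chosen after seeing the data, Fpr1 was 0.016.

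In ATM-/- mice spike-in scaling gave -1.48 for S100a8, -1.30 for S100a9, -1.45 for Csf3r, -1.31 for Cxcr2, -1.08 for Il1r2, -0.58 for Mmp8 and -1.50 for Fpr2. Normexp background gave -0.54 for S100a8, -0.41 for S100a9, -0.35 for Csf3r, -0.29 for Cxcr2, -0.055 for Il1r2, -0.019 for Mmp8 and -0.26 for Fpr2. S100a8, Csf3r and Fpr2 were -0.17, -0.13 and -0.19 with the array median and -0.12, -0.084 and -0.14 with the authors' deposited values. Mmp9 was 0.42 with scan day as a block and 0.42 with slide as a fixed block. S100a8 was -0.10 without the 3 arrays of few detected probes, and Fpr2 was -0.00125 without the 4 liver-bright arrays. In Scid mice Csf3r was 0.16 with the percentile of probes detected on all arrays, 0.17 after quantile normalization, 0.26 with spike-in scaling, 0.24 with scan day blocked and 0.54 with slides blocked.

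Replicate numbers are shared between groups, but deviations of same-numbered mice had a median r of 0.04 over 76 pairs, and 4 of 32 arrays were closest to an array of their own number. With the replicate block 0 markers were called, and S100a8 and Csf3r were -0.097 and -0.057 in ATM-/- mice.

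Leaving out 1 array turned the sign in 6 of 110 values in wild type, 18 of 110 in ATM-/- and 8 of 100 in Scid. The ranges that spanned 0 in wild type were -0.23 to 1.06 for Csf3r, -0.27 to 0.10 for Fpr1, -0.12 to 0.38 for Fpr2 and -0.89 to 0.032 for Il1r2. In ATM-/- they were -0.070 to 0.15 for Csf3r, -0.13 to 0.56 for Cxcr2, -0.64 to 0.12 for Fpr1, -0.35 to 0.38 for Fpr2, -0.79 to 0.21 for Mmp9, -0.33 to 0.41 for S100a8 and -0.080 to 0.49 for S100a9. In Scid they were -0.34 to 0.16 for Csf3r, -0.98 to 0.051 for Cxcr2 and -1.03 to 0.13 for Mmp9. Cxcr2, Mmp9, Mmp8 and Fpr2 were not tested when only probes detected on all arrays were kept.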
